A study of Mus musculus with 26 samples.

Results

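The Hox cluster genes were taken as every entry of the deposited count table whose symbol was Hox, a letter from a to d and a position number, which gave 39 of 35976 entries. Of these, 11 lie in the Hoxa cluster, 10 in Hoxb, 9 in Hoxc and 9 in Hoxd. Bulk RNA of mouse liver tumours and control livers had been sequenced, in 26 libraries. The group called Cyp1a2_CA (10 libraries of 9 animals) carried Cyp1a2-CreERT2, a tamoxifen-inducible Cre placed in pericentral hepatocytes, with Ctnnb1(ex3)fl/+, in which Cre removes exon 3 and leaves a stable beta-catenin, and Arid2fl/fl, a floxed subunit gene of a chromatin remodelling complex. Gls2_CA (9 libraries of 5 animals) carried the same floxed alleles with Gls2-CreERT2, which places the Cre in periportal hepatocytes. Cyp1a2_C was 1 library of 1 animal whose label gives Cyp1a2-CreERT2 and Ctnnb1(ex3)fl/+ but no Arid2 allele. Tumour animals were of mixed C57BL/6J and Swiss Webster background, received tamoxifen at postnatal day 28 and were followed for 6 to 12 months. WT (6 libraries of 6 animals) was C57BL/6J liver given AAV-Cre, a virus that delivers Cre, on normal chow for up to 12 months. Strain, virus, tamoxifen, genotype and tumour formation therefore changed together between the tumours and WT, and their parts in any difference cannot be told apart.

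Hox genes encode homeodomain transcription factors that give cells of the embryo their position along the head-to-tail axis. Within a cluster the order of the genes on the chromosome follows the order in which they are used, low-numbered genes in the head and neck and high-numbered genes towards the tail and in the limbs and genital organs. Polycomb complexes keep unused Hox genes silent, trithorax-type complexes keep chosen ones active, retinoic acid switches on the low-numbered genes, and the Hox proteins bind DNA together with partners of the PBX and MEIS families. Here positions 1 to 3 are called anterior, 4 to 8 central and 9 to 13 posterior. In the GENCODE M21 annotation of mm10 the Hoxa cluster spanned chromosome 6 from 52155590 to 52260880, Hoxb chromosome 11 from 96194316 to 96368256, Hoxc chromosome 15 from 102921103 to 103036852 and Hoxd chromosome 2 from 74668310 to 74765142.

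Levels are given as CPM, the usual depth-scaled count, on TMM-scaled library totals, and, where genes are compared with each other, as CPM per kilobase of exon. Library totals ran from 37051941 to 49254470 counts in Cyp1a2_CA and from 36992043 to 42865787 in Gls2_CA, the Cyp1a2_C library had 41038144, and WT libraries had 13486530 to 16975288. Arid2 stood at 24.97 to 37.18 CPM in Cyp1a2_CA, 23.4 to 47.1 in Gls2_CA, 42.5 in Cyp1a2_C and 60.1 to 72.8 in WT. Ctnnb1 stood at 66.9 to 324.9 CPM in the tumours and 145.4 to 173.6 in WT. These are counts over the whole gene and do not measure the floxed part alone. The hepatocyte gene Alb was lower in each tumour library than in each WT library (297.3 to 30636.8 CPM against 49511.6 to 69600.6). Tumour libraries were split by Ttn, the muscle gene titin, at 1000 CPM: it was above in CAB44-L and CAB225-L of Cyp1a2_CA, GAB235-S of Gls2_CA and CB6-L, the Cyp1a2_C library (8668.2 to 30170.5 CPM), against 2.26 to 92.9 CPM in the other 16 tumour libraries and 1.14 to 2.21 CPM in WT. These 4 Ttn-high libraries were picked by a measured value, so their Hox levels are given one by one, with no mean and no test. CB6-L also stood apart in having Xist, a transcript of the inactive X, at 112.7 CPM beside 553.8 CPM summed over Y-linked genes, and as the only library of its group it enters no test.

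Most Hox genes were near or at zero in WT liver, and those that were on lay at the anterior and central positions of Hoxa and Hoxb. In WT, 24 of the 39 genes had 0 counts in all 6 libraries, and 5 (Hoxa2, Hoxa3, Hoxb3, Hoxb4 and Hoxb5) reached 1 CPM in at least 1 library. Per kilobase of exon the order of WT levels was led by Hoxb4 with a median of 0.687 CPM per kb (0.599 to 0.804), then Hoxa2 with 0.518 (0.181 to 0.650), Hoxa5 with 0.368 (0.239 to 0.517) and Hoxb3 with 0.337 (0.245 to 0.524). Over the 6 libraries each of these ranges overlapped that of the next gene in the order, while Hoxb4 lay wholly above Hoxa5 and Hoxb3. Hoxa4 followed with 0.282, Hoxb5 with 0.192, Hoxb2 with 0.181 and Hoxa3 with 0.167 CPM per kb. In the 16 tumour libraries with low Ttn the order was led by Hoxb3, with a median of 1.23 CPM per kb (0.714 to 2.39), above the whole range of Hoxb4 at 0.327 (0.111 to 0.544). Hoxa3 came after at 0.240 CPM per kb (0.0236 to 0.400), overlapping Hoxb4.

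The 4 Ttn-high libraries held a different set. There 13 Hox genes reached 1 CPM in at least 1 library and 6 in all 4 libraries (Hoxb3, Hoxd3, Hoxd4, Hoxd8, Hoxd9 and Hoxd10), against 4 and 1 in the other 16 tumour libraries and 5 and 2 in the 6 WT libraries. The sets differ in size, and a gene reaches 1 CPM in all libraries less easily in a larger set. Hox genes with any read numbered 21 to 33 in the Ttn-high libraries, 10 to 18 in the other tumours and 10 to 11 in WT. Scaled to the smallest library total the expected numbers were 17.9 to 28.9, 8.5 to 13.4 and 9.6 to 11.0 for these sets, so the Ttn-high libraries were above the rest at equal depth too. Genes with any read were not counted over all genes, so these numbers are not read as particular to Hox genes. Hoxa11, Hoxb13 and Hoxc12 had 0 counts in all 26 libraries, where a count of 0 allows up to 3 counts a library. Summed over each cluster, Hoxd stood at 53.7 CPM in CAB44-L, 87.5 in CAB225-L, 131.5 in CB6-L and 108.7 in GAB235-S, against 0 to 0.390 CPM in the other tumours and 0 to 0.122 CPM in WT. The Hoxa sum was 1.45 to 4.94 CPM in the Ttn-high libraries, 0.545 to 3.47 in the other tumours and 2.18 to 3.70 in WT, and these ranges overlapped. The Hoxb sum overlapped as well, at 2.80 to 14.3 CPM in the Ttn-high libraries, 4.88 to 12.1 in the other tumours and 4.16 to 5.31 in WT. Of all reads on Hox genes, Hoxd took 60.03% to 95.74% in the Ttn-high libraries, whereas Hoxb took 58.8% to 90.7% in the other tumours and 53.1% to 67.0% in WT.

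**Figure D1:**
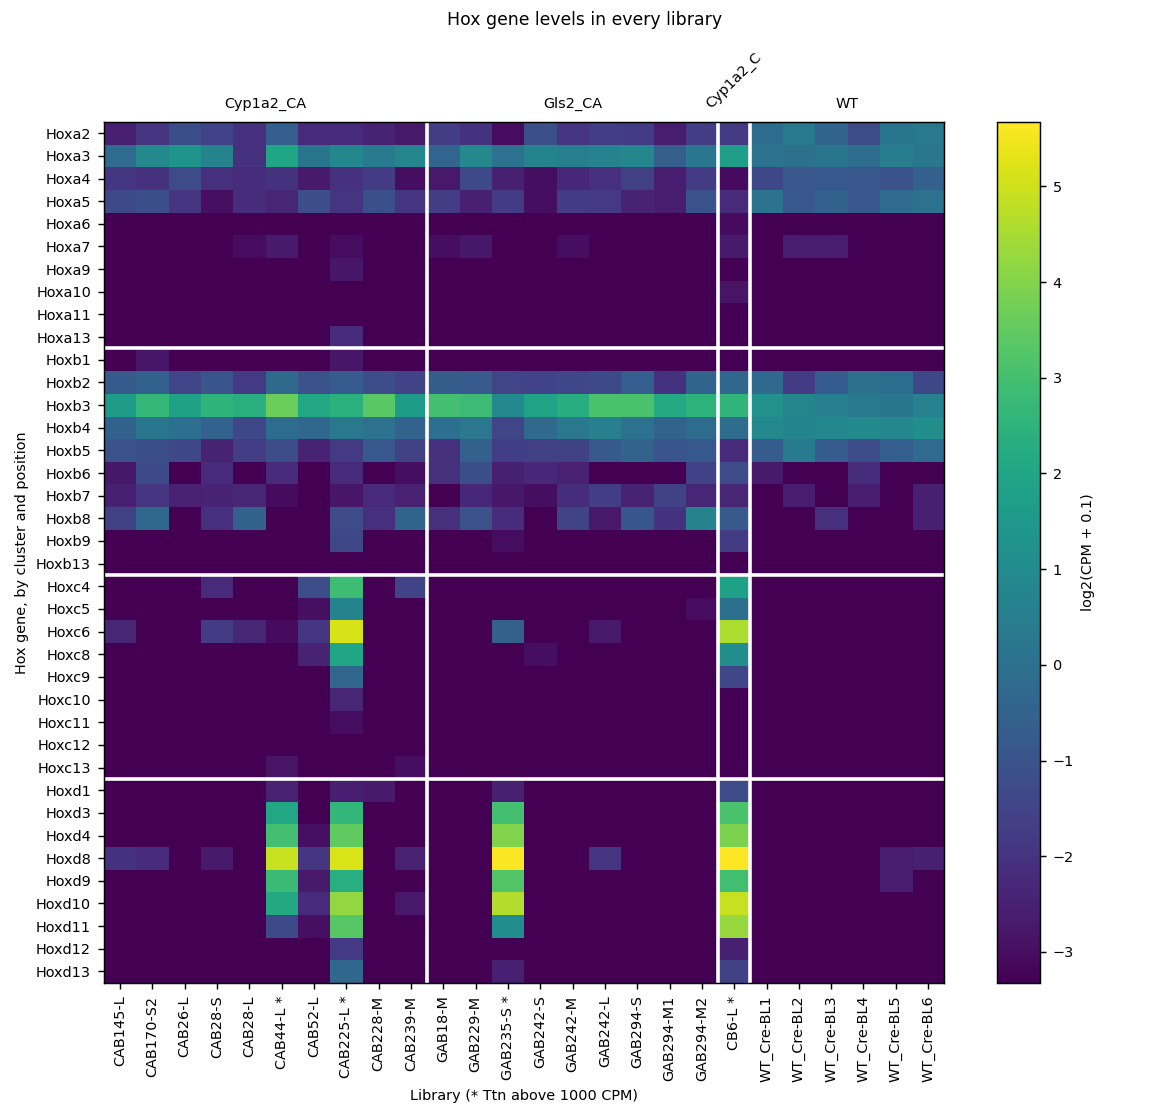
Level of 38 Hox genes (vertical axis, by cluster and position) in each of the 26 libraries (horizontal axis, by group, a star marking Ttn above 1000 CPM), as log2(CPM + 0.1) in colour. The starred columns are bright from Hoxd3 to Hoxd10, CAB225-L and CB6-L also around Hoxc6, and Hoxb3 has reads in all 26.

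Hoxd was the cluster that set the Ttn-high libraries apart. Hoxd8, a central gene used in the trunk of the embryo (chr2:74704615-74707933), stood at 30.1 CPM in CAB44-L, 35.7 in CAB225-L, 50.95 in CB6-L and 49.04 in GAB235-S, from 1520 to 2724 reads. The other 16 tumour libraries had at most 0.167 CPM of it and WT at most 0.0711. The 4 libraries lay far above all others, with no overlap. Hoxd10, a posterior gene of the lumbar spinal cord and hindlimb (chr2:74691924-74695105), stood at 4.28 CPM in CAB44-L, 18.6 in CAB225-L, 29.9 in CB6-L and 24.6 in GAB235-S, against at most 0.111 CPM in the other tumours and 0 reads in WT. CAB44-L was thus the lowest of the 4 but still above all 22 other libraries. Set against 3 counts summed over all WT libraries, a floor of 0.0318 CPM, Hoxd10 was at least 134.8-fold higher in CAB44-L and at least 942.5-fold higher in CB6-L.

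To show the start regions of these genes, both are given with the 250 bases before their RefSeq transcription start, beside those of Hoxd12, a posterior neighbour that stayed at or near 0, and of Hoxb4, the gene with the highest level per kilobase in WT. All 4 lie on the plus strand of GRCm38.p6, at chr2:74704365-74704614 for Hoxd8, chr2:74691641-74691890 for Hoxd10, chr2:74674763-74675012 for Hoxd12 and chr11:96318017-96318266 for Hoxb4. Capitals mark the letters CCAAT or CTTTGAT, in either orientation, and Hoxb4 held none of the motifs searched.
Hoxd8: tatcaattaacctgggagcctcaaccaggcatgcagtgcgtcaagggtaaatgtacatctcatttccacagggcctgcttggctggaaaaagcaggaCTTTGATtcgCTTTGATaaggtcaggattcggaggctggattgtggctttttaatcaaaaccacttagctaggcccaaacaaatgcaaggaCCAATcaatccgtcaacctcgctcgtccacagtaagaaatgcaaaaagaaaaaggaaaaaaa
Hoxd10: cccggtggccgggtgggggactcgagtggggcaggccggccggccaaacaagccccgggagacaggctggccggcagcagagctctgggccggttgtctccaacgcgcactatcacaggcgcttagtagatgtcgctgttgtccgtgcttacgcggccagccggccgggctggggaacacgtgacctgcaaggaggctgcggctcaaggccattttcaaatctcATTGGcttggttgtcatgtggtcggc
Hoxd12: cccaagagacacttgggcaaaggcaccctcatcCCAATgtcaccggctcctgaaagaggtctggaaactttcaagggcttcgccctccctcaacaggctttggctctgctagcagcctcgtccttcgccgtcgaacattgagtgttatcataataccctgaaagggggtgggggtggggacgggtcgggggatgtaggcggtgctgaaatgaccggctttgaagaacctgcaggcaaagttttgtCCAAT
Hoxb4: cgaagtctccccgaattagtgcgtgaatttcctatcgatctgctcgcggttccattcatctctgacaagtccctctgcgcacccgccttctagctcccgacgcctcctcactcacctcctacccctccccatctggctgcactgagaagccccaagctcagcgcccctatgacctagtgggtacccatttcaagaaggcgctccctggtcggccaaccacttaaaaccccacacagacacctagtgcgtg

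Levels of the other Hoxd genes varied with their place in the cluster. Hoxd3 and Hoxd4, which shape the upper neck vertebrae, stood at 4.05 and 7.92 CPM in CAB44-L, 6.16 and 11.01 in CAB225-L, 8.51 and 14.7 in CB6-L and 7.78 and 15.5 in GAB235-S. In the other tumours Hoxd3 had 0 reads and Hoxd4 at most 0.0278 CPM, and both had 0 reads in WT. On the same strand 2613 exon bases of Hoxd3 and 1542 of Hoxd4 are shared with each other or with Gm28230, so reads of this pair may have been split or dropped. Hoxd9 stood at 6.96, 5.06, 7.65 and 9.54 CPM in CAB44-L, CAB225-L, CB6-L and GAB235-S, against at most 0.0557 CPM in the other tumours and 0.0612 in WT. Hoxd11, a forearm and kidney gene, was uneven within the 4 libraries, at 0.302 CPM in CAB44-L, 9.99 in CAB225-L, 19.2 in CB6-L and 2.03 in GAB235-S, yet each was above the highest other tumour (0.0278) and WT (0 reads). At the end of the cluster Hoxd12 reached 0.188 CPM and Hoxd13, the digit gene, 0.729 CPM, both in CAB225-L, and CAB44-L had 0 reads of either. At the other end Hoxd1 was low throughout, at 0.0706 to 0.318 CPM in the Ttn-high libraries against at most 0.0559 in the other tumours and 0 in WT.

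Per kilobase of exon the peak of the cluster was at Hoxd8 in all 4 libraries, with 10.98 CPM per kb in CAB44-L, 13.03 in CAB225-L, 18.6 in CB6-L and 17.9 in GAB235-S. Hoxd8 made up 53.9%, 38.8%, 36.8% and 41.0% of the summed Hoxd level per kilobase in these libraries, in the same order. Hoxd10 came next in CAB225-L, CB6-L and GAB235-S, at 30.4% to 32.6%, whereas in CAB44-L it made up 11.6% and came after Hoxd9 and Hoxd4. Summed by position, anterior Hoxd genes gave 4.13, 6.23, 8.83 and 7.85 CPM, central ones 38.0, 46.8, 65.6 and 64.6 CPM and posterior ones 11.5, 34.5, 57.1 and 36.3 CPM in CAB44-L, CAB225-L, CB6-L and GAB235-S. The posterior sum thus varied more between the 4 libraries than the central one.

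**Figure D2:**
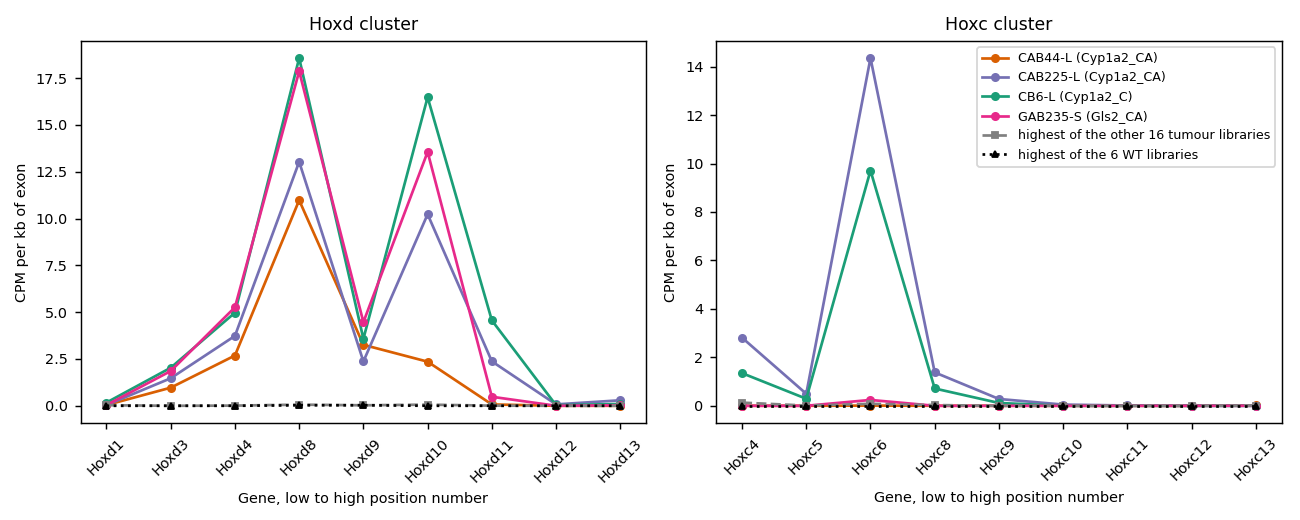
CPM per kilobase of exon (vertical axis) for each Hoxd gene (left) and Hoxc gene (right) by position in the cluster (horizontal axis), for each of the 4 Ttn-high libraries, the highest of the other 16 tumour libraries and the highest of the 6 WT libraries. Hoxd peaks at Hoxd8 in all 4 Ttn-high libraries, and Hoxc6 is high in CAB225-L and CB6-L.

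Hoxc divided the Ttn-high libraries. Hoxc6, a gene of the thoracic region, stood at 34.5 CPM in CAB225-L and 23.4 CPM in CB6-L, but at 0.580 CPM in GAB235-S and 0.0189 CPM, or 1 read, in CAB44-L. The other tumours had at most 0.196 CPM and WT 0 reads, so CAB44-L lay inside the range of the other tumours. Against the WT floor Hoxc6 was at least 1087.9-fold higher in CAB225-L and at least 736.4-fold higher in CB6-L. Its neighbours Hoxc4 (7.22 and 3.46 CPM), Hoxc5 (1.53 and 0.898), Hoxc8 (3.90 and 2.02) and Hoxc9 (0.682 and 0.281) were also on in CAB225-L and CB6-L, and all 4 had 0 reads in GAB235-S, CAB44-L and WT. Hoxc6 made up 74.0% of the Hoxc level per kilobase in CAB225-L and 79.7% in CB6-L. The posterior genes Hoxc10, Hoxc11 and Hoxc13 had at most 4 reads in any library.

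The anterior Hoxb and Hoxa genes did not separate the Ttn-high libraries from the other tumours. Hoxb3 stood at 12.3 CPM in CAB44-L, 5.24 in CAB225-L, 5.85 in CB6-L and 1.79 in GAB235-S, against 3.04 to 10.2 in the other tumours and 1.04 to 2.23 in WT. CAB44-L was above and GAB235-S below the range of the other tumours. Hoxa3, needed for the thymus and parathyroid, stood at 3.79, 1.74, 3.11 and 0.942 CPM in CAB44-L, CAB225-L, CB6-L and GAB235-S, against 0.142 to 2.41 in the other tumours and 0.834 to 1.28 in WT. Hoxb9 had reads in CAB225-L (0.282 CPM), CB6-L (0.206) and GAB235-S (0.0242) and in no other library. Hoxa6, Hoxa9, Hoxa10 and Hoxa13 had at most 5 reads, each in a single Ttn-high library. Hoxa7, Hoxb1, Hoxb6 and Hoxb7 had reads in several libraries but stayed under 1 CPM in all 26, with highest values of 0.0651, 0.0470, 0.347 and 0.239 CPM.

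Hoxd1, Hoxd3, Hoxd4, Hoxd8, Hoxd9, Hoxd10 and Hoxd11 were higher in all 4 Ttn-high libraries than in each of the other 16 tumour libraries. For Hoxd1 this rested on 4, 3, 17 and 3 reads in CAB44-L, CAB225-L, CB6-L and GAB235-S, against 2 in CAB228-M. Counting error can cover that gap. Of 17474 genes at 1 CPM or more in any tumour library, 14.0% were higher in all 4 and 7.09% lower in all 4. The share of Hox genes is not read against these, since most Hox genes that reached 1 CPM in a tumour did so only in the Ttn-high libraries. Among the other 16 tumours CAB52-L of Cyp1a2_CA, which had the highest Ttn of them (92.9 CPM), had the highest Hoxd sum (0.390 CPM) and the highest Hoxc sum (0.612 CPM). There the reads numbered 12 for Hoxc4, 6 for Hoxc6, 6 for Hoxd8 and 4 for Hoxd10.

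Markers of several other cell types also differed between the Ttn-high libraries and the other tumours. Their part in the Hoxd and Hoxc levels was not tested. In bulk RNA, fewer cells of a type and less RNA per cell cannot be told apart. The counts of list members below stand beside 14.0% higher and 7.09% lower in all 4 among genes at 1 CPM or more in any tumour library. The lists also hold genes under 1 CPM, so the shares are not strictly alike. The hepatocyte markers summed to 415.8 to 11594.5 CPM in the Ttn-high libraries, 8401.9 to 41927.0 in the other tumours and 68050.9 to 89761.2 in WT, with 2 of 8 genes lower in all 4. Mesoderm markers summed to 39.4 to 549.8 CPM in the Ttn-high libraries, 0.653 to 5.96 in the other tumours and 1.35 to 3.34 in WT, led by T (brachyury), with 2 of 6 genes higher in all 4. T stood at 248.9 CPM in CAB44-L, 317.2 in CAB225-L, 29.7 in CB6-L and 545.1 in GAB235-S, at most 1.53 in the other tumours and at 0 in WT. Most of the Ttn-high mesoderm sums came from T. Twist2 (0.168 to 1.45 CPM against 0 to 0.124) was also higher in all 4. Twist1 (0 to 0.299 CPM against 0 to 0.308), Prrx1 (1.52 to 7.22 against 0.114 to 4.77), Meox1 (0.532 to 0.973 against 0.0237 to 0.647) and Tbx6 (0.847 to 1.09 against 0.146 to 1.02) overlapped the other tumours. Haematopoietic progenitor markers summed to 93.7 to 215.5 CPM, against 4.65 to 12.0 in the other tumours and 12.1 to 18.5 in WT. Most of the Ttn-high sums came from Gata2 (40.59 to 116.8 CPM) and Kit (22.18 to 94.31). Of the 6 genes, 3 (Kit, Gata2 and Myb) were higher in all 4. Cd34 (2.585 to 10.68 CPM against 0.5674 to 4.002), Flt3 (0.187 to 1.184 against 0 to 0.9206) and Mpo (0 to 0.1411 against 0 to 0.946) overlapped the other tumours. The mesoderm and progenitor sums thus did not overlap those of the other tumours. Stellate and fibroblast markers summed to 135.8 to 1134.3 CPM against 31.9 to 169.2 in the other tumours and 267.6 to 325.4 in WT (1 of 8 higher in all 4). Skeletal muscle markers summed to 1.30 to 40.3 CPM against 0 to 2.70 in the other tumours and 0 in WT (1 of 6 higher in all 4), and Ckm was at 0 in CAB44-L and CAB225-L. Neural markers summed to 2.09 to 75.3 CPM against 1.01 to 4.63 in the other tumours and 0.925 to 1.95 in WT (1 of 6 higher in all 4), with Sox2 at 0 in all 26 libraries. The sums of these last 3 lists overlapped the other tumours. Endothelial (179.5 to 265.6 CPM against 170.2 to 296.8) and leukocyte sums (120.1 to 165.3 against 58.5 to 290.4) lay inside the range of the other tumours; WT had 337.0 to 375.1 and 84.2 to 103.2 CPM. Cholangiocyte markers summed to 91.7 to 311.0 CPM against 12.2 to 148.4 in the other tumours and 29.83 to 50.02 in WT (1 of 6 higher in all 4). Gut epithelium sums (4.58 to 9.62 CPM, 1 of 5 genes higher in all 4) lay below the other tumours (14.8 to 201.3) and overlapped WT (4.196 to 12.25). Kidney sums (0.449 to 2.28 CPM, 1 of 5 genes higher in all 4) overlapped the other tumours (0 to 17.7) but lay above WT (0.0571 to 0.245). Erythroid sums (7.30 to 62.3 CPM) overlapped the other tumours (9.54 to 85.4) and lay below WT (72.5 to 116.2).

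Against WT, Cyp1a2_CA tumours had more Hoxb3 and less of 5 other genes of Hoxa and Hoxb. Of the 8 Hox genes that passed the filter on low counts, Hoxb3 rose and Hoxa2, Hoxa4, Hoxa5, Hoxb4 and Hoxb5 fell, while Hoxa3 and Hoxb2 did not pass the test. In this comparison 38.3% of 16841 genes tested rose and 32.7% fell. The median log2 fold change was -1.27 over the 8 Hox genes and 0.17 over all genes tested. The tests compare counts summed per animal with edgeR.

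Hoxb3, an anterior gene of the hindbrain and neck, had a lowest, median and highest animal of 3.09, 5.16 and 12.2 CPM in Cyp1a2_CA, against 1.04, 1.44 and 2.24 CPM in WT. All 9 tumour animals were above all 6 WT animals. The means were 5.95 ± 3.27 CPM in Cyp1a2_CA (SD, n = 9) and 1.49 ± 0.424 in WT (SD, n = 6), a log2 fold change of 1.93 (SE 0.35, adjusted p = 0.00015 by edgeR). Its exons overlap 2250 bases of Hoxb3os, an antisense transcript, and the strand setting of the counting is not given in the sources used here, so reads of either transcript cannot be told apart.

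Hoxb4, known from mouse bone marrow as a gene that expands blood stem cells, ran from 0.449 over a median of 0.809 to 1.09 CPM in Cyp1a2_CA, against 1.55, 1.78 and 2.08 CPM in WT, and the groups did not overlap. Its log2 fold change was -1.22 (SE 0.23, adjusted p = 0.00016 by edgeR), with means of 0.805 ± 0.220 CPM in Cyp1a2_CA and 1.79 ± 0.175 in WT. Hoxa5, a lung and neck gene, averaged 0.224 ± 0.116 CPM in Cyp1a2_CA and 0.699 ± 0.234 in WT, and all 9 tumour animals were below all WT animals (log2 fold change -1.71, SE 0.38, adjusted p = 0.00085). Hoxa2, a hindbrain gene, averaged 0.190 ± 0.161 CPM in Cyp1a2_CA and 0.855 ± 0.329 in WT, with 7 of 9 below all WT animals (-2.20, SE 0.48, adjusted p = 0.00074). Hoxa4 (0.1499 ± 0.0855 CPM in Cyp1a2_CA, 0.431 ± 0.0967 in WT) fell by 1.58 on the log2 scale (SE 0.40, adjusted p = 0.0022), with 8 of 9 below WT. For Hoxb5, an enteric neural crest gene, the overlap was larger, with 5 of 9 animals below all WT animals (0.276 ± 0.118 CPM in Cyp1a2_CA, 0.655 ± 0.317 in WT; log2 fold change -1.31, SE 0.37, adjusted p = 0.0053). Hoxa3 averaged 1.70 ± 0.948 CPM in Cyp1a2_CA and 1.02 ± 0.157 in WT (0.67, SE 0.35, adjusted p = 0.095), with 5 animals above and 2 below the WT range. Its exons share 1529 bases with antisense transcripts and 482 with Gm28308 on the same strand, so the limit given for Hoxb3 holds for Hoxa3 too. It also holds, over fewer bases, for Hoxa2 (267 shared with Gm28308 on the same strand), Hoxa4 (255 antisense), Hoxb5 (100 antisense) and Hoxb2 (953 antisense). Hoxb4 and Hoxa5 share no exon bases with other genes. Hoxb2, a gene of the facial motor neurons, averaged 0.438 ± 0.166 CPM in Cyp1a2_CA and 0.584 ± 0.298 in WT (-0.48, SE 0.37, adjusted p = 0.25).

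Without the CAB44 and CAB225 animals the same 6 genes were called in the same directions, with log2 fold changes of 1.70 for Hoxb3, -1.32 for Hoxb4, -1.56 for Hoxa5, -2.57 for Hoxa2, -1.58 for Hoxa4 and -1.31 for Hoxb5. With an offset for exon length and GC content they were still called, but the falls of Hoxa2 (-1.40) and Hoxa5 (-1.02) were smaller. Of the marker lists, with all animals kept, 6 of 8 hepatocyte, 4 of 8 stellate, 5 of 8 endothelial and 2 of 3 erythroid genes tested fell in Cyp1a2_CA. Genes that rose included 1 of 8 endothelial, 1 of 7 leukocyte, 2 of 4 haematopoietic progenitor and 2 of 6 cholangiocyte genes. With all animals no leukocyte, progenitor or cholangiocyte gene fell, and of all genes tested 38.3% rose and 32.7% fell. The counts moved without CAB44 and CAB225. Of 7 leukocyte genes 1 then rose and 1 fell, of 4 progenitor genes 1 rose and 2 fell. Of 5 cholangiocyte genes 1 rose and 2 fell. Falls numbered 6 of 8 hepatocyte (1 rose), 6 of 8 stellate, 6 of 8 endothelial and 1 of 3 erythroid genes. The part of the markers was not tested.

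In Gls2_CA against WT 4 Hox genes passed the filter, of which Hoxb3 rose and Hoxa2 and Hoxb4 fell. Of 14976 genes tested here, 39.2% rose and 34.0% fell, and the median log2 fold change was -0.51 over the 4 Hox genes and 0.14 over all genes. Hoxb3 stood at 7.99 CPM in animal GAB18, 7.29 in GAB229, 1.78 in GAB235, 5.66 in GAB242 and 6.33 in GAB294, against 1.04, 1.44 and 2.24 CPM as the lowest, median and highest WT animal. All but GAB235, the Ttn-high one, were above WT. The means were 5.81 ± 2.42 CPM in Gls2_CA (SD, n = 5) and 1.49 ± 0.424 in WT, and the log2 fold change was 1.85 (SE 0.34, adjusted p = 0.00039 by edgeR). Without GAB235 it was 2.07.

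Hoxb4 stood at 0.897, 1.12, 0.264, 1.10 and 0.813 CPM in GAB18, GAB229, GAB235, GAB242 and GAB294, all below the lowest WT animal (1.55 CPM). Its log2 fold change was -1.19 (SE 0.31, adjusted p = 0.0042), and -0.98 without GAB235. Hoxa2 stood at 0.218, 0.153, 0.0240, 0.243 and 0.166 CPM in the same animals, all below the lowest WT animal (0.321 CPM), with a log2 fold change of -2.46 (SE 0.46, adjusted p = 0.00047) and -2.21 without GAB235. With the length and GC offset it was -1.68. Hoxa3 averaged 1.22 ± 0.457 CPM in Gls2_CA and 1.02 ± 0.157 in WT and overlapped (0.17, SE 0.27, adjusted p = 0.59). Hoxa4 and Hoxa5 were under the filter on low counts, with 0.137 ± 0.104 CPM in Gls2_CA against 0.431 ± 0.0967 in WT and 0.164 ± 0.0567 against 0.699 ± 0.234, and with no filter their adjusted p was 0.024 and 0.0015. Of the marker lists, 6 of 8 hepatocyte, 6 of 8 stellate and 5 of 8 endothelial genes fell here. Genes that rose included 1 of 8 endothelial, 3 of 6 leukocyte, 2 of 3 haematopoietic progenitor and 2 of 5 cholangiocyte genes, and 1 cholangiocyte gene fell. Of all genes tested 39.2% rose and 34.0% fell. These counts are with all animals. Without GAB235, 1 of 3 progenitor genes rose and 1 fell, 1 of 8 hepatocyte genes rose and 6 of 8 endothelial genes fell. The leukocyte, cholangiocyte and stellate counts stayed the same. The part of the markers was not tested.

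The Hoxd genes passed the filter in neither comparison. Of the 3141 reads of Hoxd8 in Cyp1a2_CA, 1598 were from CAB44-L and 1520 from CAB225-L, and of the 2036 in Gls2_CA 2030 were from GAB235-S, with at most 6 in any other tumour library of these groups. With no filter edgeR called Hoxd8 (adjusted p = 0.023) and Hoxd9 higher in Cyp1a2_CA, where DESeq2 called Hoxd10 instead, and edgeR called Hoxd8 and Hoxb8 higher in Gls2_CA (adjusted p = 0.039 and 0.024). The WT animals were shared by both comparisons, so the values of Hoxb3, Hoxb4 and Hoxa2 in them are not independent.

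**Figure D3:**
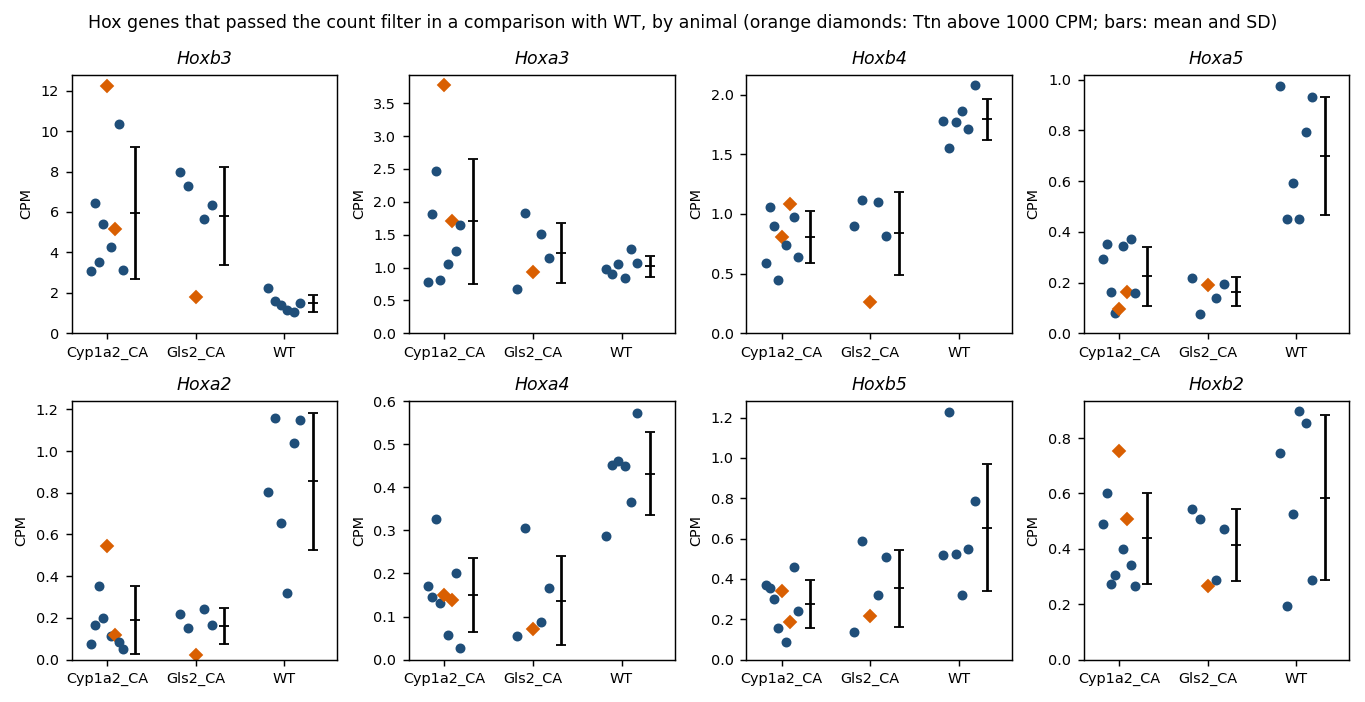
CPM (vertical axis) of the 8 Hox genes that passed the filter on low counts in a comparison with WT, in each animal of Cyp1a2_CA (9), Gls2_CA (5) and WT (6), with orange diamonds for the Ttn-high animals and bars for the mean and SD. Hoxb3 lies above WT in all but 1 tumour animal, Hoxb4 and Hoxa5 lie below WT in all tumour animals, and Hoxb2 overlaps.

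**Figure D4:**
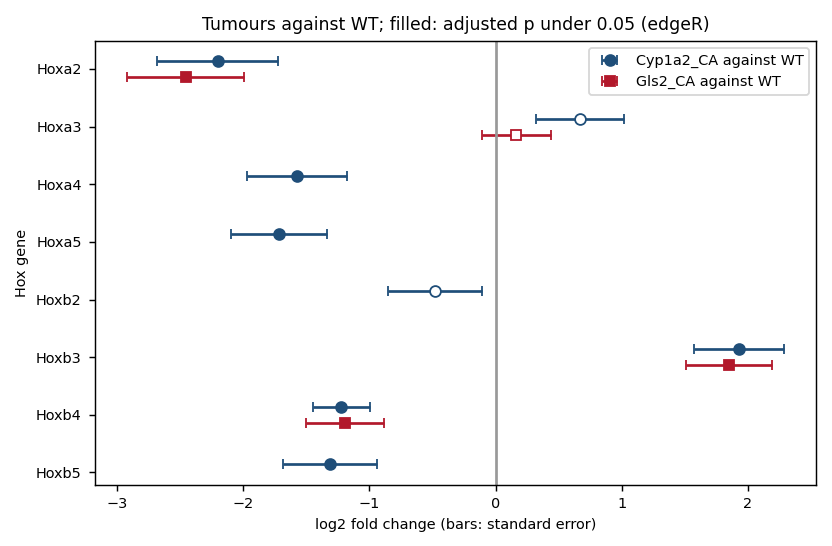
Log2 fold change with its standard error (edgeR) for the Hox genes that passed the filter on low counts (vertical axis), with circles for Cyp1a2_CA against WT and squares for Gls2_CA against WT. Filled points have an adjusted p under 0.05, and Hoxb3 is the only filled one to the right of 0.

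Pericentral-driver and periportal-driver tumours were set side by side to ask whether the zone of the Cre driver goes with Hox levels. Of 17129 genes tested, 0.0% were called by edgeR, with 545 at an unadjusted p under 0.05, and none of the 6 Hox genes tested was among these 545. Hoxb3 averaged 5.95 ± 3.27 CPM in Cyp1a2_CA and 5.81 ± 2.42 in Gls2_CA, a log2 fold change of 0.05 with a standard error of 0.40. Hoxb4 (-0.05, SE 0.33), Hoxb2 (0.09, SE 0.33), Hoxa3 (0.49, SE 0.40) and Hoxb5 (-0.35, SE 0.42) had differences of about their standard error or less, and Hoxb8 (-0.13, SE 0.97) was the least precise. These standard errors leave room for differences that the test could not detect. DESeq2 called 7 genes higher and 12 lower between these groups, and limma-voom 0 and 12, with no Hox gene among them.

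Libraries that share an animal number also differed in Hox level. Hoxb3 stood at 3.53, 4.71 and 8.46 CPM in GAB242-S, GAB242-M and GAB242-L, and at 8.51, 4.47 and 5.58 CPM in GAB294-S, GAB294-M1 and GAB294-M2. Hoxa3 stood at 1.54 CPM in CAB28-S and 0.142 CPM in CAB28-L. Hoxb8, a gene of blood and microglial lineages in the mouse, stood at 0.426, 0.149 and 1.54 CPM in GAB294-S, GAB294-M1 and GAB294-M2, and it was the only Hox gene besides Hoxa3, Hoxb3 and Hoxb4 to reach 1 CPM in a tumour library with low Ttn.

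Most partners of the Hox proteins rose in the tumours. Of the 9 PBX, MEIS and PKNOX genes tested, 7 rose and 1 fell in Cyp1a2_CA against WT, and 8 rose and 1 fell in Gls2_CA against WT, with a median log2 fold change of 1.39 and 1.78. Of all genes tested 38.3% rose and 32.7% fell in Cyp1a2_CA and 39.2% rose and 34.0% fell in Gls2_CA, with medians of 0.17 and 0.14. Pknox1 had a log2 fold change of 1.39 in Cyp1a2_CA and 1.58 in Gls2_CA, and Pbx2 of -1.35 and -1.26. Meis2, chosen after its values were seen, stood at 270.4 CPM in CAB44-L, 271.6 in CAB225-L, 140.2 in CB6-L and 611.4 in GAB235-S, against 24.2 to 68.9 in the other tumours and 6.66 to 9.38 in WT. Meis2 was the only 1 of these 9 genes higher in all 4 Ttn-high libraries than in the other tumours, beside 14.0% of genes at 1 CPM or more in any tumour library. It rose by a log2 fold change of 3.52 in Cyp1a2_CA (SE 0.61, adjusted p = 8.8e-05) and 4.31 in Gls2_CA, and by 2.46 and 2.58 without the Ttn-high libraries. With an offset for exon length and GC content Meis1 (log2 fold changes of 0.09 in Cyp1a2_CA and 0.20 in Gls2_CA) and, in Gls2_CA, Pknox2 (0.80) were no longer called, while Meis2 was still called at 2.53 and 3.19 and Pknox1 at 0.90 and 1.07.

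Genes of both kinds of Hox control changed in either direction, more of them up than down. Of 26 polycomb genes tested, 16 rose and 5 fell in Cyp1a2_CA, and 16 rose and 7 fell in Gls2_CA, beside 38.3% of all genes that rose and 32.7% that fell in Cyp1a2_CA and 39.2% and 34.0% in Gls2_CA. The median log2 fold changes of this list were 0.68 and 0.87. Kdm2b, which brings polycomb to CpG islands, had log2 fold changes of 3.48 and 3.96, Phc3 of 2.59 and 2.79, and Ezh2, the H3K27 methyltransferase, of 2.71 and 2.56, whereas Rbbp4 (-1.15 and -1.48) fell. Ezh2 was higher in all 4 Ttn-high libraries (66.2, 66.4, 78.0 and 70.2 CPM in CAB44-L, CAB225-L, CB6-L and GAB235-S) than in the other tumours (17.4 to 50.3) and WT (5.42 to 8.81). It was among 3 of the 26 polycomb genes that were higher in all 4 than in the other tumours. The share was 14.0% of genes at 1 CPM or more in any tumour library, so this is not read as particular to polycomb genes. Of 13 trithorax-type genes, 11 rose and 2 fell in Cyp1a2_CA and 10 rose and 2 fell in Gls2_CA, among them Kdm6a (2.21 and 2.04) and Kdm6b (2.12 and 2.25), which remove the polycomb mark, and Wdr5 (-1.05 and -1.17). Kmt2a, the best known Hox activator, stood at 363.9 to 553.3 CPM in the Ttn-high libraries, 147.9 to 219.4 in the other tumours and 63.6 to 74.0 in WT. Kmt2a was among 4 of the 13 trithorax-type genes that were higher in all 4 than in the other tumours. Its rise (1.69 and 1.79) was no longer called once exon length and GC content were offset, at 0.22 (adjusted p = 0.1) and 0.19 (adjusted p = 0.42). Under the same offset the log2 fold changes were 2.48 and 2.94 for Kdm2b, 1.31 and 1.44 for Phc3, 1.24 and 1.21 for Kdm6b and -1.76 and -2.10 for Rbbp4, all still called.

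The count of retinoic acid genes that rose depended on the Ttn-high libraries. In Cyp1a2_CA 4 of 12 rose and 3 fell, and 1 of 11 rose and 4 fell without the Ttn-high libraries; in Gls2_CA 3 of 11 rose and 3 fell, and 2 rose and 4 fell without them. With all libraries these shares lay below those of all genes, of which 38.3% rose and 32.7% fell in Cyp1a2_CA and 39.2% rose and 34.0% fell in Gls2_CA. Rara, a retinoic acid receptor, rose in both (1.58 and 2.01), and Aldh1a1, a retinoic acid forming enzyme of liver, fell (-0.85 and -0.77). Rarb, a receptor that retinoic acid itself induces, stood at 43.8, 36.9, 65.8 and 73.8 CPM in CAB44-L, CAB225-L, CB6-L and GAB235-S, against 1.95 to 13.5 in the other tumours and 3.72 to 6.47 in WT. Its log2 fold changes were 1.51 (adjusted p = 0.029) in Cyp1a2_CA and 1.92 (adjusted p = 0.039) in Gls2_CA. Without those libraries they were 0.48 and 0.04 and no longer called, nor were they with limma-voom, at 0.58 and 0.28. Aldh1a2, the main retinoic acid forming enzyme of the embryo, stood at 5.99, 3.46, 2.10 and 12.7 CPM in CAB44-L, CAB225-L, CB6-L and GAB235-S, and at no more than 0.708 CPM in any other tumour and 0.456 in WT. Of the 14 genes listed 4, Rarb and Aldh1a2 among them, were higher in all 4 Ttn-high libraries than in the other tumours. Rxra was lower in all 4 (49.3 to 236.9 CPM against 265.8 to 513.5). Cyp26a1 (1.83 to 5.58 against 0 to 22.6) and Cyp26b1 (4.54 to 12.7 against 0.732 to 36.2) overlapped. Among genes at 1 CPM or more in any tumour library, 14.0% were higher and 7.09% lower in all 4.

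Homeobox genes related to the Hox clusters were mostly silent. Pdx1, Gsx1 and Evx2 had 0 counts in all libraries, and Cdx1, Cdx2 and Cdx4 at most 0.0839 CPM. Evx1, which lies beyond the posterior end of Hoxa, stood at 0.697, 8.23, 4.08 and 2.39 CPM in CAB44-L, CAB225-L, CB6-L and GAB235-S, against at most 0.334 in the other tumours and 0 in WT, although the posterior Hoxa genes next to it were near 0. Gsx2 stood at 0.151, 0.141, 1.12 and 0.217 CPM in the same 4 libraries and had 0 reads elsewhere. Of the noncoding genes in the clusters, Haglr, between Hoxd1 and Hoxd3, stood at 0.547, 1.69, 1.89 and 1.55 CPM in the same order and had 0 reads in all other libraries, and Hotair, Hottip and Hoxa11os had 0 reads throughout. Next to Hoxd, Lnp stood at 40.5, 52.1, 69.3 and 67.7 CPM in CAB44-L, CAB225-L, CB6-L and GAB235-S, against 27.2 to 46.2 in the other tumours and 9.995 to 15.79 in WT, and rose in both comparisons (1.71 and 1.81). Mtx2, the neighbour on the anterior side, fell in both (-1.68 and -1.67), at 8.62 to 10.1 CPM in the Ttn-high libraries, 10.1 to 21.4 in the other tumours and 35.5 to 46.3 in WT. Both neighbours were on in all 26 libraries, including those with 0 reads of Hoxd8.

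**Figure D5:**
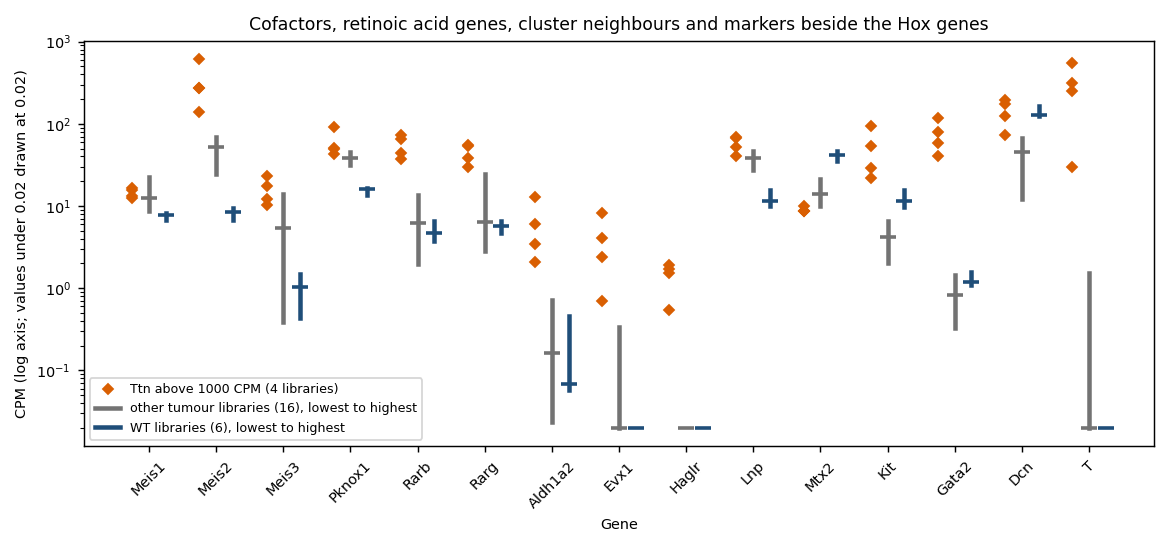
CPM (vertical log axis, values under 0.02 drawn at 0.02) of Hox partners, retinoic acid genes, cluster neighbours and markers, with orange diamonds for the 4 Ttn-high libraries and lines from the lowest to the highest, with a dash at the median, for the other 16 tumour libraries and the 6 WT libraries. Meis2, Rarb, Aldh1a2, Evx1, Haglr, Gata2 and T lie above the other lines in the Ttn-high libraries, while Mtx2 lies below WT.

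For the promoter letters, RefSeq windows of 300 bases, 250 before and 50 after the start, were matched for 22 of the 39 genes in 24 windows. The letters CCAAT on either strand were found in 15 of 24 Hox windows and in 37.4% of 32851 windows of all genes, both at Hoxd genes that were on in the Ttn-high libraries (Hoxd3, Hoxd4, Hoxd8 and Hoxd10) and at Hoxd12 and Hoxd13, which were at or near 0. TATAAA was in 4 of 24 (13.6% of all), at Hoxa10, Hoxb8, Hoxd4 and Hoxd13, and the PBX-HOX letters TGATNNAT in 4 of 24 (8.8% of all), at Hoxa2, Hoxb1, Hoxb8 and Hoxd11. CTTTGAT, a letter run bound by TCF factors, the DNA-binding partners of beta-catenin, was in the Hoxd8 window alone among the 24 (3.7% of all), where it stands at 2 places in the printed sequence. The T-box letters AGGTGTGA were in the Hoxd9 window alone (1.3% of all). The motifs did not overlap one another in these windows except for 2 matches of TATAAA at Hoxd13. Hox windows held a median of 14.5 CpG dinucleotides, against 7.0 in all windows. A match is a run of letters and not a measured binding site.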

How the data were processed

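The data were bulk RNA sequencing of 20 mouse liver tumour libraries and 6 WT liver libraries. The labels' protocols name frozen tumour fragments, TRIzol and a PureLink column for the RNA, and a Nugen Ovation kit and a single flow cell for sequencing. What the authors deposited was 1 table of raw whole-number counts for 35976 gene symbols. It was made on mm10, per the submitters' processing notes. How reads were aligned, counted, assigned to strands and matched to an annotation is not given in the sources used here.

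Members and gene lists were chosen with earlier results of these data known. Libraries sharing an animal number in their titles were summed, giving 9 Cyp1a2_CA, 5 Gls2_CA and 6 WT animals, so a p-value reflects variation from one animal number to the next. Each pair of groups was fitted over all genes with edgeR 4.0.16 in R 4.3.3 (filterByExpr with a minimum count of 10, TMM, robust quasi-likelihood fit), with Benjamini-Hochberg adjustment across every gene tested and a threshold of 0.05. Unless a tool is named, an adjusted p comes from edgeR. Rose and fell are used of genes past this threshold. CPM per library used TMM factors over all 26 libraries, and levels per kilobase used exon lengths of GENCODE M21. The fit was tested on simulated data. Library totals of 13486530 to 49254470 counts set the precision, and limits from 0 counts cover counting error only. Libraries with Ttn above 1000 CPM were described beside the others without a test.

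Hox genes described with values were mainly those tested in a comparison or at 1 CPM or more in any library. Values are also given for Hox genes outside these limits, such as Hoxd1, Hoxd12, Hoxd13, Hoxb9 and Hoxc9. Results of some single genes are not reported here. Other genes were list members called in a comparison, up to 4 a list by smallest p, and Ttn, Arid2, Ctnnb1, Xist and Y-linked genes, besides those named next. Ezh2, Kmt2a, Meis1, Meis2, Rarb, Aldh1a2, Ckm, Sox2, T with the other mesoderm markers, and the haematopoietic progenitor markers were named after their values were seen. So were Rxra, Cyp26a1, Cyp26b1 and the genes of the related homeobox and noncoding lists. Alternatives changed the scaling (RLE or upper-quartile), the filter (none, or 1 CPM in as many animals as the smaller group has), the unit (every library a replicate), the groups in the fit (all 3), the tool (DESeq2 1.42.0, or voom of limma 3.58.1 with quality weights), the libraries (without the Ttn-high ones, or without each animal in turn) and the offset (on exon length and GC content, with mgcv 1.9.3). Promoter sequences came from RefSeq on GRCm38.p6, and figures were drawn with matplotlib 3.10.9 in Python 3.11.15.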

Additional observations from a re-analysis of the deposited data

Results flagged for a closer look

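Within groups of animals, 45 sets of Hox values of 18 genes were checked for a single animal far from the rest, and 16 such values were found, 6 in Cyp1a2_CA, 9 in Gls2_CA and 1 in WT. Chance alone marks about 1 in 20 sets of normally distributed values, which is not the rate here: genes were taken for reaching 1 CPM in any library, often a Ttn-high one, and in sets of mostly zeros a single read stands apart. All values are CPM per animal. In Cyp1a2_CA the animal CAB225 stood apart for Hoxc4 (7.10), Hoxc5 (1.503), Hoxc6 (34.0), Hoxc8 (3.84), Hoxd10 (18.3) and Hoxd11 (9.83), the central Hoxc and posterior Hoxd genes. In Gls2_CA the animal GAB235 stood apart for 7 genes, Hoxd3 (7.73), Hoxd4 (15.4), Hoxd8 (48.7), Hoxd9 (9.48), Hoxd10 (24.5), Hoxd11 (2.02) and Hoxc6 (0.576). Both animals had Ttn above 1000 CPM. The remaining 3 values were single reads, Hoxc5 in GAB294 (0.00924), Hoxc8 in GAB242 (0.00869) and Hoxd9 in WT_Cre-BL5 (0.0611).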

How the results depend on the processing

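No paired analysis was possible because the animal numbers differ between the groups, so no animal of one could be paired with an animal of another. The 9 called fold changes kept their direction and their call under each alternative in which the gene could be tested, though the length and GC offset brought Hoxa2 to -1.40 in Cyp1a2_CA and -1.68 in Gls2_CA and Hoxa5 to -1.02 in Cyp1a2_CA. Of 412 recomputed fold changes of 18 in all, 1 that had not been called became called (Hoxa3 in Cyp1a2_CA against WT without CAB145, 0.77, adjusted p = 0.049 by edgeR) and 22 turned sign, none of them called. The number of Hox genes called higher, 1 in each tumour group against WT, was 3 in each with no filter (in Cyp1a2_CA Hoxd8 and Hoxd9 were added), and 2 in each with 3 groups in 1 fit and with DESeq2; leaving out animals gave 1 to 2 in Cyp1a2_CA and 1 to 1 in Gls2_CA. The number called lower in Cyp1a2_CA against WT, 5, was 1 with the stricter filter, under which fewer Hox genes were tested, and 5 to 5 without single animals. In Gls2_CA against WT it was 2, with 1 under the stricter filter, 4 with no filter, with every library as a replicate, with 3 groups in 1 fit and with DESeq2, and 2 to 4 without single animals (4 without WT_Cre-BL4). No Hox gene was called between Cyp1a2_CA and Gls2_CA under any alternative run. The uncalled Hoxa3 value in Gls2_CA against WT (0.17) was -0.058 with upper-quartile factors, -0.24 with the length and GC offset and -0.0083 to 0.324 without single animals. Between Cyp1a2_CA and Gls2_CA, Hoxb2 was -0.011 with limma-voom, -0.23 without the Ttn-high libraries and -0.0382 to 0.2108 without single animals, Hoxb3 was -0.21, -0.39 and -0.1633 to 0.1933 under the same settings, Hoxb4 was 0.0157 with the offset and -0.2621 to 0.082 without single animals, and Hoxb8 was -0.4494 to 0.6131 without single animals. The other sign changes without 1 animal were, for Hoxb2, -0.0076 without GAB235 and -0.0076 without GAB242, for Hoxb3, -0.15 without CAB44 and -0.071 without CAB228, for Hoxb4, 0.0103 without CAB145, 0.0468 without CAB28 and 0.0784 without GAB242, and, for Hoxb8, 0.0513 without CAB26, 0.0406 without CAB44 and 0.0484 without CAB52. The cause of these changes was not tested. Upper-quartile factors moved the median of all genes to -0.05 in Cyp1a2_CA and -0.09 in Gls2_CA and the numbers called higher and lower to 5592 and 6260 (6442 and 5499 with TMM) and to 5118 and 5838 (5870 and 5095 with TMM). WT libraries were the shallowest, so that low Hox genes at 0 there are limited by depth.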
